A study of Drosophila melanogaster with 8 samples.

Results

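The genes described here are 10 members of the Drosophila Notch pathway, of 17807 genes in the gene table used: the receptor N, the ligand Dl, the ubiquitin ligase neur, the DNA-binding effector Su(H) and 6 bHLH genes of the Enhancer of split complex (E(spl)m3-HLH, E(spl)m5-HLH, E(spl)m7-HLH, E(spl)m8-HLH, E(spl)mbeta-HLH and E(spl)mgamma-HLH). They were chosen by name. Every called ATAC-seq peak within each gene's annotated span plus 3 kb on each side (its window) was taken, with its presence and width in each library. ATAC-seq marks open chromatin by the insertion of adapters by Tn5 transposase. The series holds 8 libraries from Drosophila melanogaster embryos in 4 groups of 2 replicates, namely wild type (WT) and mutant embryos, each labelled 1 to 1.5 h and 2.5 to 3 h. The study asked what IntS11, the endonuclease of the Integrator complex that cleaves nascent RNA, does in embryos, by comparing mutant lines with wild type. The title of every library, WT ones included, carries the words IntS11 mislocalized, so placing the mislocalized protein in the mutant is an inference. The labels do not describe the allele, name the strain of either genotype, say which line a library came from, or state whether replicates were separate collections, so differences between replicates may be technical.

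Notch is a surface receptor that is activated by the ligand Delta on a neighbouring cell. Neuralized attaches ubiquitin to Delta, which drives the ligand into endocytosis and makes it active, and the cleaved intracellular part of Notch then joins Suppressor of Hairless on DNA. The E(spl) bHLH genes are direct targets of that complex and encode repressors that work with Groucho to keep cells from a neural fate. In the fly embryo the pathway separates neural from epidermal precursors in the neurectoderm and specifies the mesectoderm at the ventral midline.

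The libraries differed in how much was called, and the values below can move with that. WT libraries of 1 to 1.5 h held 23815 to 25201 peaks covering 8189 to 8913 kb, and mutant libraries of that age held 15569 to 18706 peaks covering 3712 to 4486 kb. At 2.5 to 3 h the ranges were 18440 to 19002 peaks and 8376 to 8714 kb in WT, and 19035 to 19995 peaks and 8048 to 8336 kb in the mutant. The median peak was 192 bp wide in both early mutant libraries and 272 to 280 bp in early WT. The lists hold positions only, so sequencing depth is unknown, and the absence of a call over a stretch is not evidence that its chromatin was closed. At IntS11 itself, a region on 3R at 29745279 to 29745833 was called in 4 of 4 WT and 0 of 4 mutant libraries, and one at 29746418 to 29747371 in 0 of 4 WT and 4 of 4 mutant libraries.

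The measure used is covered length, the number of base pairs of a window that lie in peaks. A pair of groups is said to differ when their libraries do not overlap. With 2 libraries against 2, the smallest exact permutation p (two-sided) is 0.333, so no comparison within 1 age can pass a threshold of 0.05, and "less" and "more" below describe libraries that do not overlap. Over both ages together the smallest p is 0.0556.

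At 1 to 1.5 h, 9 of the 10 members had less covered length in the mutant and 0 had more. Over all genes, 77.6% had less and 2.27% more. The exception was E(spl)m7-HLH, whose groups overlapped. The direction turned when libraries were scaled to equal total covered length (0 with less, 9 with more). After that scaling, 31.4% of all genes had less and 22.0% more. The median log2 ratio of mutant over WT, computed after adding 100 bp, was -0.59 over the 10 members and -1.01 over all genes. At 2.5 to 3 h, 5 members had less (N, Dl, neur, E(spl)m5-HLH and E(spl)mbeta-HLH) and 2 had more (E(spl)m7-HLH and E(spl)mgamma-HLH), against 36.7% and 19% of all genes. Here the median log2 ratio was -0.10 over the members and -0.12 over all genes. Libraries scaled to equal covered length left neur overlapping and the other calls in place, against 31.5% of all genes with less and 22.0% with more. Before scaling, the 5 members with less when late had less at both ages, against 30.7% of all genes, and 0 had more at both, against 1.34% (exact permutation p = 0.0556 for each of the 5, adjusted over all genes 0.173). Libraries without overlap in the same direction at both ages always give that p, so it adds no support to the count. Under the scaling to equal covered length, 0 had less at both ages and 2 had more, E(spl)m7-HLH and E(spl)mgamma-HLH. The shares of all genes at both ages under that scaling are not given.

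**Figure D1:**
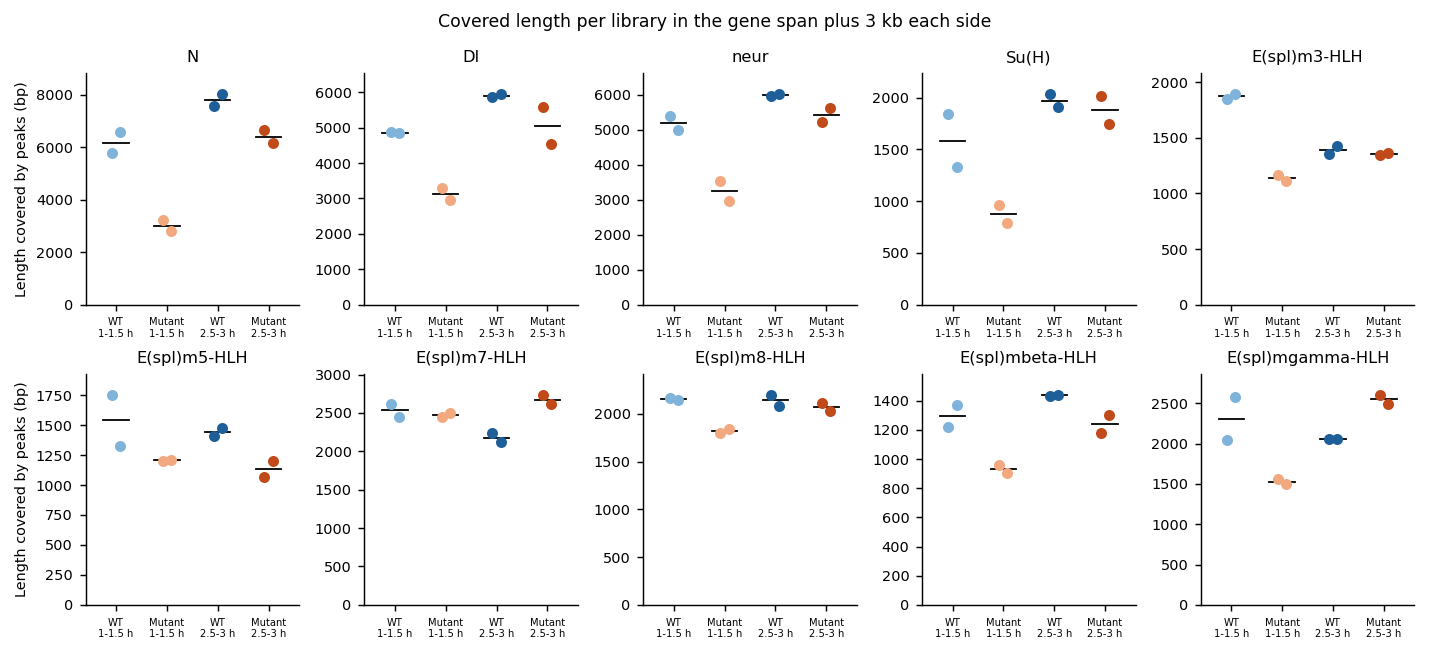
Covered length (bp, linear axis from 0, own scale per gene) in the gene span plus 3 kb each side. Each point is 1 library and each line the mean of 2. N, Dl and neur show both mutant libraries under both WT libraries at each age, while E(spl)m7-HLH and E(spl)mgamma-HLH show mutant above WT at 2.5 to 3 h. Values are not scaled for the smaller total length called in early mutant libraries. When they are, 9 of the 10 members lie above WT at 1 to 1.5 h, against 22.0% of all genes, and N overlaps.

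**Figure D2:**
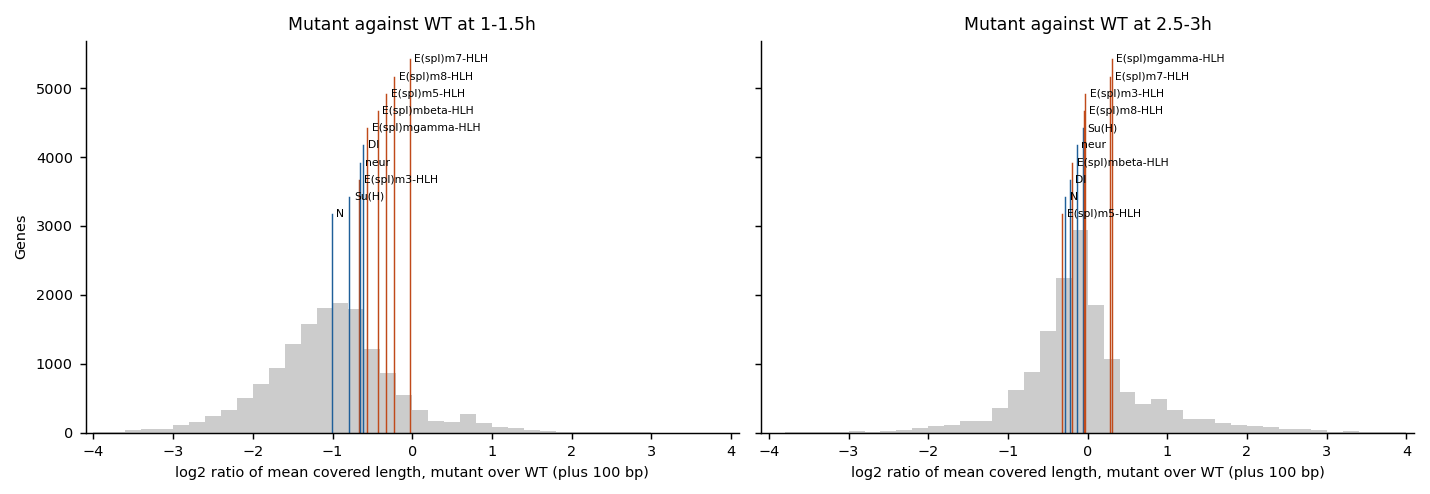
Histogram of the log2 ratio of mean covered length in mutant over WT for all genes with a peak in the window (grey), with the 10 members as lines (red for E(spl) genes, blue for the other 4). At 1 to 1.5 h, N lies at the centre of the distribution and E(spl)m7-HLH at its right side. Without scaling, the distribution at 1 to 1.5 h is centred on -1.01. At 2.5 to 3 h it is centred on -0.12, with E(spl)m7-HLH and E(spl)mgamma-HLH to its right.

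The ligand gene Dl (3R, 19302731 to 19326217) had 4872 and 4847 bp covered in early WT, 3284 and 2967 bp in early mutant, 5859 and 5946 bp in late WT, and 5582 and 4531 bp in late mutant. Mutant libraries lay under WT at both ages, and the late mutant replicates differed from each other by more than the nearest mutant library did from WT. Scaled to equal covered length, mutant libraries lay above WT when early and under it when late. The mean late log2 ratio of -0.22 became -0.37 without late mutant replicate 1. Nearly all of this length lay in the gene span, since the flanks held 116 to 178 bp in any library.

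The widest Dl region, 19304735 to 19306665 and 2.0 kb into the span from its lower-coordinate end, had 1798 and 1770 bp covered in early WT and 1366 and 1245 bp in early mutant, in each early mutant library as a pair of peaks. In late embryos it was 1823 and 1714 bp in WT and 1863 and 1755 bp in the mutant, which overlap. This region was therefore not where the late genotypes differed. Length was lower in late mutant at 19317211 to 19317688, with 450 and 435 bp in WT, 214 bp in mutant replicate 1 and no peak in replicate 2, and at 19311875 to 19312788, with 914 and 836 bp in WT and 764 and 708 bp in the mutant. A region at 19315021 to 19315807 had 350 and 357 bp in early WT, no peak in early mutant, 662 and 623 bp in late WT and 689 and 433 bp in late mutant. Another, 19299454 to 19299765 beyond the lower-coordinate end, was 312 bp wide in both early WT libraries and was called in no other. A small region at 19314195 to 19314370 was called in both late WT libraries, at 173 and 157 bp, and in neither late mutant library. Of the 10 Dl regions called in both early WT libraries, all 7 that were also called in both early mutant libraries were narrower there, against 67.4% of all such regions.

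The receptor gene N (X, 3134870 to 3172221) is the longest gene of the 10 and had the most covered length in every group but early mutant. Peaks covered 5786 and 6570 bp in early WT, 3237 and 2791 bp in early mutant, 7587 and 8027 bp in late WT, and 6674 and 6152 bp in late mutant. The early mutant mean was 48.8% of WT (3014 ± 315 against 6178 ± 554 bp, SD, n = 2), and N lay near the middle of all genes, with 48.6% of them at a lower ratio. The late mutant mean was 82.1% of WT (6413 ± 369 against 7807 ± 311 bp, SD, n = 2).

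The peak at the lower-coordinate end of N, 3134670 to 3135285, was called in every library and varied little, from 546 to 609 bp. The widest peak inside the gene, in the region 3162149 to 3163235, was also in every library: 1039 bp in both early WT libraries, 904 and 728 bp in early mutant in 2 pieces each, 1058 and 1083 bp in late WT, and 1085 and 1048 bp in late mutant. Late genotypes differed in between and beyond these. At 3139270 to 3140260, late WT had single peaks of 890 and 899 bp, where late mutant had 549 and 470 bp as a pair of peaks in each library. In early embryos that region had 379 and 431 bp in WT, all of it in the higher-coordinate part, and 193 and 159 bp in the mutant, all of it in the lower-coordinate part. Regions called in both late WT and in neither late mutant library lay at 3140829 to 3141056, 3142159 to 3142396, 3150651 to 3150820 and 3164535 to 3165170. The last of these was the widest, with 424 and 511 bp. Early mutant libraries also had no peak at 3135587 to 3135880, 3143328 to 3143574 and 3168037 to 3168621, each called in both early WT libraries, the first at 256 and 245 bp. In the other direction, 3148346 to 3148575 was called in both late mutant libraries, at 212 and 205 bp, and in none of the other 6.

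**Figure D3:**
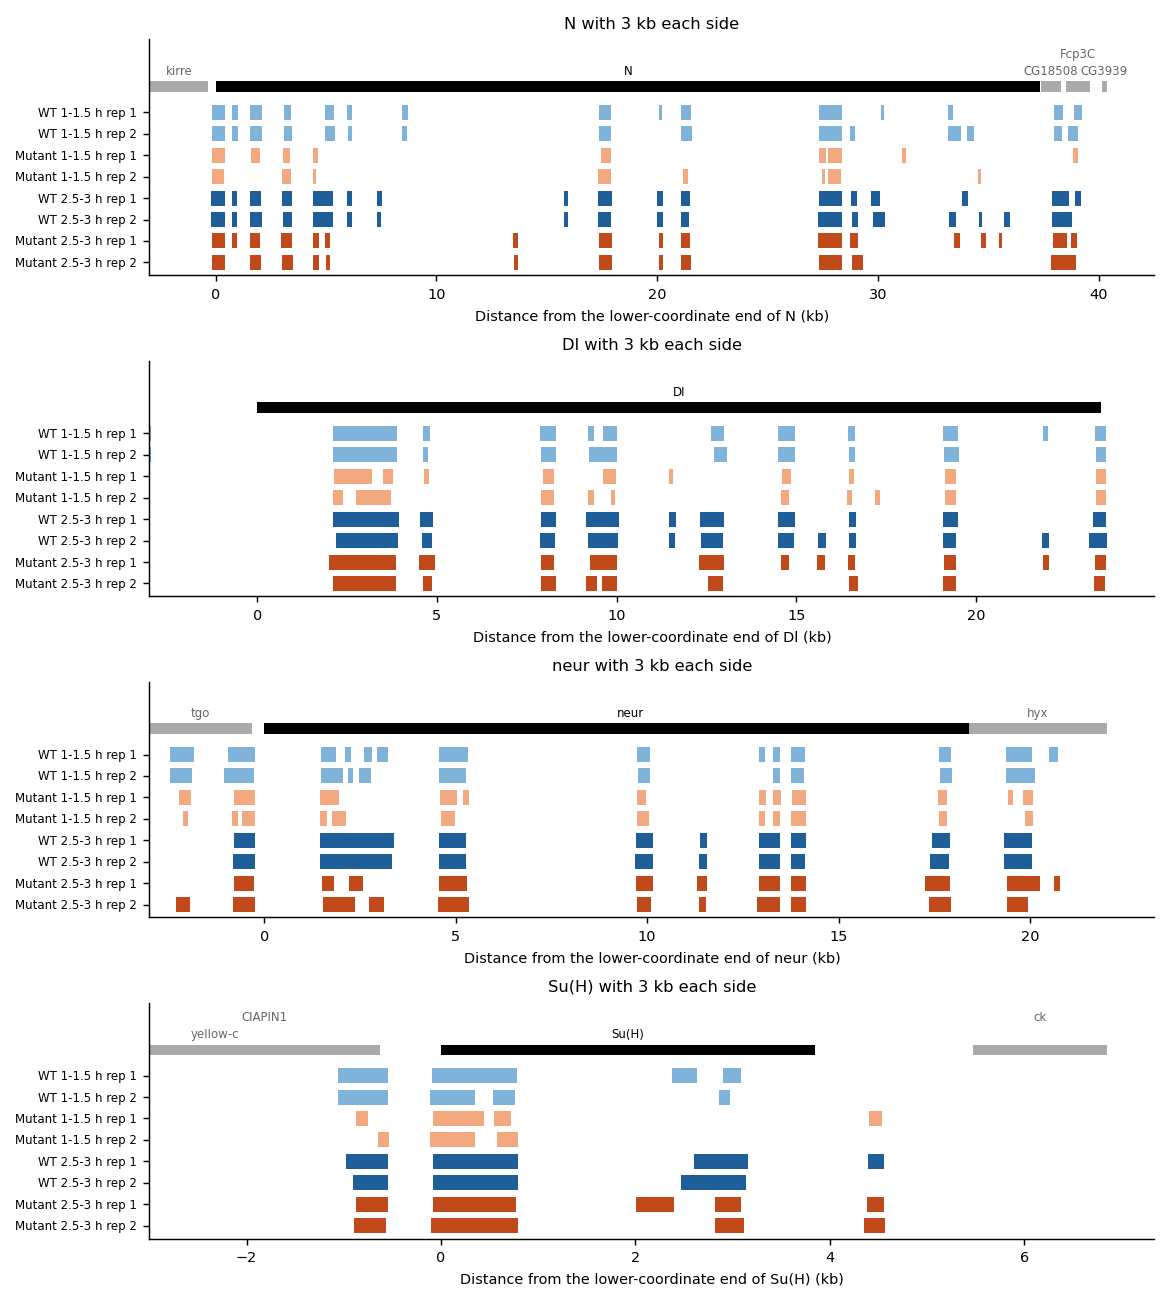
Called peaks in each of the 8 libraries (rows) across N, Dl, neur and Su(H) with 3 kb each side, as distance in kb from the lower-coordinate end of the gene. Black bars are the named genes and grey bars neighbouring protein-coding genes. The neur peak that spans about 1.9 kb in both late WT libraries is a pair of shorter peaks in both late mutant libraries, and the Su(H) region near 2.9 kb has no peak in early mutant libraries.

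The ligase gene neur (3R, 9020348 to 9039471) had 5383 and 4988 bp covered in early WT, 3541 and 2953 bp in early mutant, 5956 and 6012 bp in late WT, and 5231 and 5614 bp in late mutant. Mutant libraries lay under WT at both ages. Scaled to equal covered length, they lay above WT when early, and the late groups overlapped. The late difference before scaling came from the gene span (4687 and 4701 bp in WT, 3677 and 4138 bp in the mutant). The flanks, which overlap tgo and hyx, held more in the mutant, at 1554 and 1476 bp, than in WT, at 1269 and 1311 bp. Within the span it was largest at 9021800 to 9023747, a region shared with the annotated antisense RNA asRNA:CR31429. There late WT had 1 unbroken peak of 1948 and 1877 bp. Late mutant had a pair of peaks that together covered 670 and 1213 bp, early WT had 1033 and 1001 bp in 3 or 4 pieces, and early mutant 490 and 547 bp. Another region of neur, 9037608 to 9038303, went the other way between ages: 301 and 302 bp in WT and 236 and 197 bp in the mutant when early, 475 and 509 bp in WT and 650 and 574 bp in the mutant when late. One region, 9031657 to 9031922, was called only in the 4 late libraries, at 187 and 224 bp in WT and 266 and 188 bp in the mutant.

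Su(H) (2L, 15039488 to 15043334), the DNA-binding partner of activated Notch, had 1840 and 1332 bp covered in early WT, 965 and 786 bp in early mutant, 2033 and 1908 bp in late WT, and 2016 and 1745 bp in late mutant. The early groups did not overlap and the late groups did. The region at its lower-coordinate end, 15039373 to 15040280, was in every library, at 674 to 898 bp. A second region inside the gene, 15041489 to 15042645, had no peak in either early mutant library, 448 and 121 bp in early WT, 557 and 669 bp in late WT, and 656 and 295 bp in late mutant.

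The 6 E(spl) bHLH genes lie within a 44.1 kb stretch of 3R, measured from the lower-coordinate end of E(spl)mdelta-HLH to that of gro, the gene for Groucho. Their windows partly overlap, so they share 3 of the 72 regions in the 10 windows and are not independent of each other. In the whole window the late genotypes split, with 2 of the 6 at less and 2 at more. The windows were also split into spans and flanks, a split chosen after the values were seen. Inside the gene spans alone, 5 of the 6 had more covered length in late mutant and 0 had less. E(spl)m3-HLH had no peak in its span in any library, so it could not count either way. Over all genes with a peak in the span, 19.3% had more and 30.5% less. The scaling to equal covered length left the counts at 5 and 0, against 23.9% and 26.3% of all genes. In the 3 kb flanks alone, 4 of the 6 had less in late mutant and 1 had more. The shares of all genes were 37.9% and 16.4%. Scaling gave 3 and 1, against 32.0% and 19.6% of all genes. At 1 to 1.5 h the spans gave 3 with more and 1 with less, against 3.05% and 60.8%, and the flanks 5 with less and 0 with more, against 71.9% and 2.34%. After scaling, the early spans gave 5 with more and 0 with less, against 19.7% and 27.5% of all genes. The early flanks turned to 4 with more and 1 with less, against 21.5% and 29.7%.

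**Figure D4:**
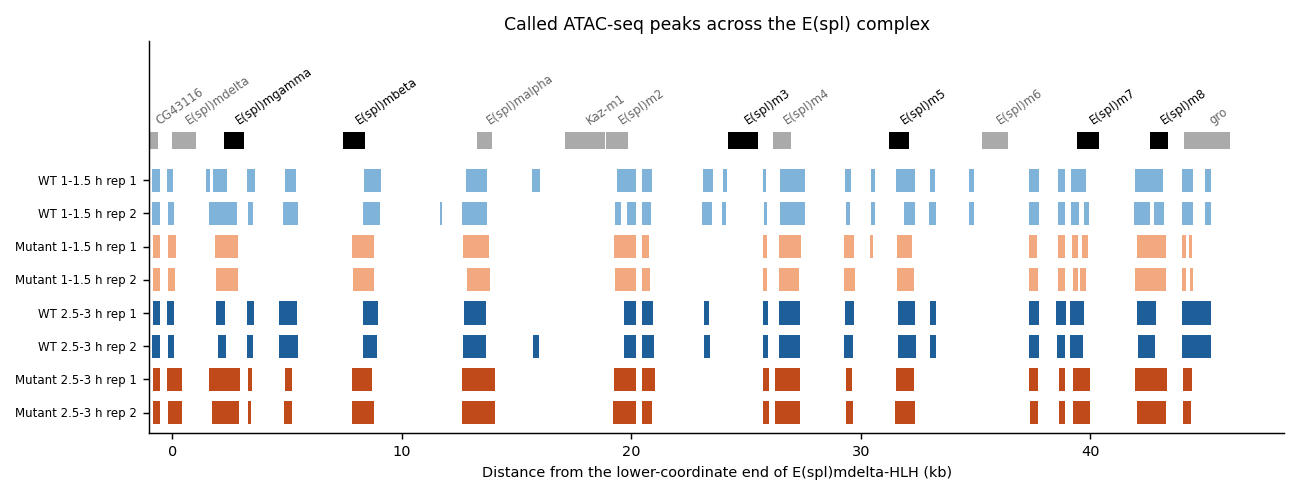
Called peaks in each of the 8 libraries (rows) across the E(spl) complex, as distance in kb from the lower-coordinate end of E(spl)mdelta-HLH. Black bars are the 6 bHLH members and grey bars other protein-coding genes. Peaks at E(spl)mgamma-HLH, E(spl)mbeta-HLH and E(spl)m8-HLH reach further over the gene in both late mutant libraries than in late WT, and peaks between the protein-coding genes near 5, 23 and 33 kb are short or missing in the mutant.

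For E(spl)m8-HLH (26040240 to 26041008), peaks covered 31.7% and 28.5% of the gene span in late WT and 92.8% and 91.5% in late mutant. In early embryos the shares were 70.6% and 58.6% in WT and 91.0% and 91.2% in the mutant. Mutant libraries thus lay above WT at both ages, with means of 709 ± 7.1 against 231.5 ± 17.7 bp in late embryos (SD, n = 2). The region that touches the gene, 26039531 to 26040953, ended at 26040483 and 26040458 in late WT, at 26040953 and 26040943 in late mutant, and at 26040939 and 26040940 in early mutant. On the other side of the gene, the region 26041639 to 26042908, which touches gro, had 760 and 767 bp in early WT, 272 and 280 bp in early mutant, 1268 and 1266 bp in late WT, and 390 and 363 bp in late mutant. Of the 15 E(spl) regions outside the bHLH spans, it had the largest late difference. Over the whole window E(spl)m8-HLH had 2171 and 2144 bp in early WT, 1803 and 1844 bp in early mutant, 2203 and 2082 bp in late WT, and 2115 and 2031 bp in late mutant, and the late groups overlap.

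E(spl)mbeta-HLH (26005046 to 26006023) had peaks over 6.95% and 7.67% of its span in early WT and over 7.67% in both late WT libraries. In the mutant the shares were 57.7% and 55.3% when early and 60.4% and 59.1% when late. No WT library came near a mutant library at either age. The peak began between 26005949 and 26005956 in the 4 WT libraries and between 26005433 and 26005483 in the 4 mutant libraries, and it also ended at lower coordinates in the mutant (26006322 to 26006417 against 26006531 to 26006722). Its whole width was 767 and 708 bp in early WT, 958 and 906 bp in early mutant, 643 and 583 bp in late WT, and 890 and 948 bp in late mutant. The whole window nevertheless held less in the mutant, with 1220 and 1372 bp in early WT, 958 and 906 bp in early mutant, 1435 and 1442 bp in late WT, and 1180 and 1304 bp in late mutant. Scaled to equal covered length, the window held more in the mutant when early and less when late. Without scaling, 1 kb flanks in place of 3 kb turned the direction at both ages (log2 ratios of 0.30 and 0.52).

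Part of the flank that gave this lies between E(spl)mbeta-HLH and E(spl)mgamma-HLH, at 26002249 to 26003115, mostly beyond the higher-coordinate end of the long noncoding RNA lncRNA:CR45037. It had 453 and 664 bp in early WT, no peak in early mutant, 792 and 859 bp in late WT, and 290 and 356 bp in late mutant. A second region between the genes, 26000877 to 26001205, had 317 and 203 bp in early WT, no peak in early mutant, 291 and 272 bp in late WT, and 169 and 151 bp in late mutant. In both, early mutant libraries had no peak and late mutant libraries lay under late WT.

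E(spl)mgamma-HLH (25999851 to 26000761) had peaks over 6.37% and 13.9% of its span in late WT and over 76.6% and 73.4% in late mutant. Early WT replicates stood apart from each other, at 15.0% and 62.0%, and early mutant libraries were at 69.8% and 69.6%. The region that touches the gene, 25999081 to 26000548, had 406 and 376 bp in late WT against 1322 and 1192 bp in late mutant, and 771 and 1194 bp in early WT against 1008 and 982 bp in early mutant, which overlap. Over the whole window the order of the genotypes was not the same at both ages, with 2040 and 2574 bp in early WT, 1559 and 1494 bp in early mutant, 2055 and 2053 bp in late WT, and 2609 and 2492 bp in late mutant. It was the member whose genotype difference was of opposite sign at the 2 ages without overlap, against 11.4% of all genes (exact permutation p = 0.0556, adjusted over all genes 0.487). Libraries without overlap in opposite directions always give that p, so it adds no support. When libraries were scaled to equal covered length, the early difference turned as well (log2 ratio 0.45) and the mutant was higher at both ages.

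E(spl)m7-HLH (26037038 to 26038019) had peaks over 39.6% and 31.6% of its span in early WT, 29.4% and 29.1% in early mutant, 30.9% and 27.4% in late WT, and 57.4% and 59.1% in late mutant. The late mutant thus stood above every other library. Its region, 26036764 to 26037617, was covered over 577 and 540 bp in late WT and 741 and 757 bp in late mutant, and over 622 and 538 bp in early WT and 497 and 453 bp, as a pair of peaks per library, in early mutant. The whole window held 2619 and 2447 bp in early WT, 2449 and 2496 bp in early mutant, 2238 and 2117 bp in late WT, and 2740 and 2611 bp in late mutant. Part of that window is the peak at E(spl)m8-HLH, which is counted in both windows.

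E(spl)m5-HLH (26028854 to 26029735) had peaks over 62.7% and 24.0% of its span in early WT, 58.2% in both early mutant libraries, 54.2% in both late WT libraries, and 66.0% and 69.5% in late mutant. The late groups did not overlap, by a smaller margin than at the other 4 genes, and the region that touches the gene (26029123 to 26030042) overlapped in width. Over the whole window it had 1755 and 1323 bp in early WT, 1201 and 1212 bp in early mutant, 1406 and 1479 bp in late WT, and 1067 and 1198 bp in late mutant, so mutant libraries lay under WT at both ages. The early log2 ratio of -0.33 was -0.12 without early WT replicate 1. Scaled to equal covered length, mutant libraries lay above WT when early and under it when late. A region between genes at 26030608 to 26030925 was called in all 4 WT libraries (244 and 318 bp early, 287 and 303 bp late) and in 0 of 4 mutant libraries. One at 26032348 to 26032582 was called in both early WT libraries alone, at 235 and 188 bp. Another, 26026904 to 26027394, was wider in early mutant, at 418 and 491 bp, than in early WT, at 280 and 154 bp, and narrower in late mutant, at 283 and 332 bp, than in late WT, at 383 and 391 bp.

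E(spl)m3-HLH (26021823 to 26023127) had no called peak inside its span in any of the 8 libraries, so all of its covered length came from the flanks. These held 1853 and 1893 bp in early WT, 1170 and 1111 bp in early mutant, 1352 and 1424 bp in late WT, and 1350 and 1360 bp in late mutant. The early groups did not overlap and the late groups did. The region at 26020701 to 26021167, which overlaps lncRNA:CR43644, was called in all 4 WT libraries (437 and 462 bp early, 193 and 264 bp late) and in 0 of 4 mutant libraries. A smaller one, 26021594 to 26021780, had 177 and 176 bp in early WT and no peak elsewhere. The largest region of the window touches the neighbouring gene E(spl)m4-BFM, of the Bearded family (26023896 to 26025199), and had 1108 and 1113 bp in early WT, 964 and 905 bp in early mutant, 921 and 946 bp in late WT, and 1097 and 1095 bp in late mutant.

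**Figure D5:**
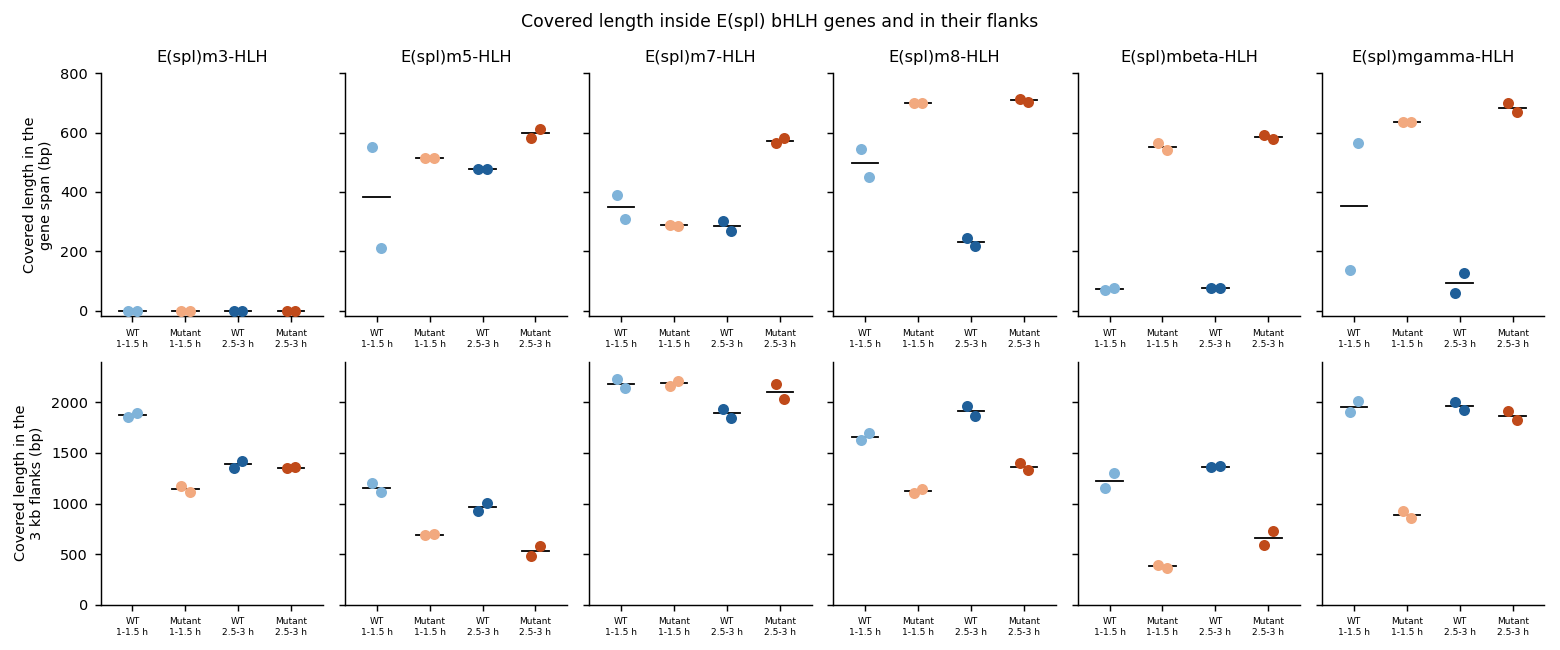
Covered length (bp) inside the gene span (upper) and in the 3 kb flanks (lower) of the 6 E(spl) bHLH genes. Each point is 1 library and each line the mean of 2. In late embryos the mutant lies above WT inside 5 of the 6 spans, and under WT in the flanks of E(spl)m5-HLH, E(spl)m8-HLH, E(spl)mbeta-HLH and E(spl)mgamma-HLH. E(spl)m3-HLH has 0 bp in its span in every library.

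Counted by region, peaks of the 8 libraries that overlap by at least 1 bp were merged, which gave 72 regions in the 10 windows, 20 of them at the E(spl) genes and 52 at the other 4. Of the 72, 34 were called in all 8 libraries, which is 47.2%, against 17.8% of all 38545 regions. A region is lost here when both WT libraries and neither mutant library had it, and gained in the reverse case. At 1 to 1.5 h, 13 of the 54 regions present in both WT libraries were lost, against 27.1% of all such regions, and 0 were gained, against 6.48%. With lists cut to equal numbers of peaks, 6 were lost and 3 gained at that age. That cut kept the widest peaks of each library, so it dropped the narrowest peaks of the longer lists. At 2.5 to 3 h, 7 of 54 were lost, against 12.5%, and 1 was gained, against 13.1% of the regions present in both mutant libraries (3 without late mutant replicate 2, and 0 with lists of equal length). Of 36 regions kept at 1 to 1.5 h, 23 were narrower in the mutant and 6 wider, against 67.4% and 5.23%. Of 45 kept at 2.5 to 3 h, 17 were narrower and 12 wider, against 39.4% and 18.2%.

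In late embryos the E(spl) regions were grouped by position, a grouping chosen after the values were seen. Peaks of regions that touch a span also enter the span counts above, so these regions are not a second result. The 5 that touch a bHLH member's span were all kept, 4 of them wider in the mutant and 0 narrower, against 18.2% and 39.4% of all kept regions. Outside those spans lay 15 regions. Of 12 present in both late WT libraries, 2 were lost in the mutant, against 12.5% of all such regions. Of 10 kept when late, 7 were narrower and 3 wider, against 39.4% and 18.2%. In early mutant 6 of 15 were lost, against 27.1%. Of 8 kept when early, 5 were narrower and 3 wider, against 67.4% and 5.23%. At N, Dl, neur and Su(H) together, 10 of 30 kept regions were narrower in late mutant and 5 wider, close to the late shares of 39.4% and 18.2%. In early mutant 17 of 23 were narrower and 1 wider, against 67.4% and 5.23%.

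Between ages, WT had more covered length when late at N, Dl, neur, Su(H) and E(spl)mbeta-HLH and less at E(spl)m3-HLH and E(spl)m7-HLH, which is 5 and 2 of 10 against 31.2% and 29.4% of all genes. With libraries scaled to equal covered length, E(spl)mbeta-HLH overlapped. In the mutant, 9 of 10 had more when late and 1, E(spl)m5-HLH, had less, against 71.4% and 3.27%. The median log2 ratio of late over early in the mutant was 0.53 over the members and 0.88 over all genes. The scaling that moved the latter to 0.02 left 2 members with more and 8 with less, against 26.3% and 24.0% of all genes. Inside spans, WT had less when late at E(spl)m7-HLH, E(spl)m8-HLH and E(spl)mgamma-HLH, and no E(spl) gene had more, against 29.4% and 28.1% of genes. In the mutant all 5 E(spl) genes with a peak in the span had more when late and none less, against 56.2% and 4.7%. After scaling 4 of them had less and 0 more, against 21.6% and 25.2% of genes. By region, 6 of 54 present in both early WT libraries were lost with age, against 24.8% of all such regions. Of 54 present in both late WT libraries, 4 were gained, against 14.9% of all such regions. In the mutant, on the same bases, 0 of 36 were lost and 8 of 47 gained, against 9.45% and 22.5%. The count of gains in the mutant was 14 without late mutant replicate 2. With lists of equal length, 2 were lost and 8 gained in WT, and 1 lost and 4 gained in the mutant. Of 47 regions kept with age in WT, 11 were narrower and 23 wider when late, against 15.8% and 49.2%, and of 34 kept in the mutant 3 were narrower and 25 wider, against 1.68% and 80.6%.

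Of 39 other genes of the pathway listed, 37 were matched to the gene table. At 1 to 1.5 h, 30 of them had less covered length in the mutant and 1 had more, against 77.6% and 2.27% of all genes. The direction turned under scaling (6 with less, 22 with more), against 31.4% and 22.0% of all genes. The lowest ratios were at Bx42, a Su(H) coactivator (1493.5 bp in WT, 239.5 bp in the mutant), at aph-1, a subunit of the gamma-secretase that cleaves Notch (1708.5 against 401.5 bp), and at rumi, which adds glucose to Notch (1144.5 against 255 bp). At 2.5 to 3 h, 13 had less and 9 more, against 36.7% and 19% of all genes. After scaling the counts were 11 and 11, against 31.5% and 22.0%. At both ages 11 had less: E(spl)m4-BFM, E(spl)m6-BFM, gro, O-fut1, rumi, aph-1, pen-2, mib1, CtBP, Bx42 and dx, against 30.7% of all genes. After scaling, 3 of these had less at both ages, namely rumi, aph-1 and Bx42. Before scaling, the proneural gene l(1)sc alone had more at both ages, against 1.34% of all genes. With scaling, 9 of the 37 had more at both ages. They were E(spl)mdelta-HLH, E(spl)malpha-BFM, E(spl)m1, E(spl)m2-BFM, Tom, Ocho, fng, sca and l(1)sc. The shares of all genes at both ages with scaling are not given. Among those with less at 2.5 to 3 h were E(spl)m6-BFM (1512.5 bp in WT, 839.5 bp in the mutant), the gamma-secretase subunit gene pen-2 (1551 against 886.5 bp) and rumi (890.5 against 548.5 bp). Those with more at 2.5 to 3 h were led by sca, a secreted protein that acts on Notch in lateral inhibition (3752 against 6151 bp), and fng, which modifies Notch sugars and sets its preference among ligands (1205.5 against 1703.5 bp). Before scaling, neither was among those with more at both ages, and fng had less when early. With scaling, both had more at both ages. The other 7 genes of the E(spl) complex were divided in late embryos, with 3 at less and 4 at more in the window, against 36.7% and 19% of all genes. Inside the span 1 had less and 4 more, against 30.5% and 19.3%. After scaling both gave 1 and 4, against 31.5% and 22.0% in the window and 26.3% and 23.9% in the span.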

How the data were processed

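ATAC-seq peak lists of 8 embryo libraries, 1 list per library, were used as the authors deposited them. They give the chromosome, start and end of each peak in bp, with no score, p-value or depth, so no interval or detection limit was set. The submitters' processing notes name MACS2 2.2.7.1, deepTools 3.5.1, SAMtools 1.18, Trimmomatic 0.39, Bowtie2 2.2.5 and the dm6 build. Parameters, including any shift of reads for the cut of the transposase, were not stated there. Groups were taken from the library titles.

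Coordinates are dm6, 1-based. Gene spans were read from RefSeq's table for the Release 6 assembly, without strand, transcripts or exons, so gene ends could not be told apart as start or end of transcription. Dl and a few other genes were found by synonym or locus tag. Covered length was summed from peaks clipped to each window, and computed for all genes with a peak in at least 1 of the libraries (15839). Ratios are log2 of mean covered length plus 100 bp. Exact permutation tests were two-sided, over 6 arrangements of libraries within an age and 36 over both ages, with Benjamini-Hochberg adjustment over all genes. Python 3.11.15, NumPy 2.4.6 and pandas 2.3.3 were used, and the script was tested on simulated data. Other pathway genes are named when they had less or more at both ages or were among the 5 lowest or highest ratios of a comparison without overlap, and regions when lost or gained between genotypes, when the widest of a gene, or when they differed between groups or lay at an E(spl) gene (these last chosen after values were seen). The members and lists were chosen with earlier results of these data known. Promoter sequence was not used here.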

Additional observations from a re-analysis of the deposited data

Results flagged for a closer look

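For E(spl)mgamma-HLH, the difference in covered length between mutant and WT moved by 1277 bp from 1 to 1.5 h to 2.5 to 3 h, with every mutant library below WT when early and above it when late (exact permutation p = 0.0556, the smallest the design can give, adjusted over all genes 0.487). That order of libraries always gives this p. For E(spl)m3-HLH, the difference between ages in the mutant exceeded that in WT by 699.5 bp, since WT libraries were lower when late and mutant libraries higher (exact permutation p = 0.278, adjusted 0.611). For E(spl)m7-HLH the same quantity was 558.5 bp, again with WT lower and the mutant higher when late (exact permutation p = 0.167, adjusted 0.611). Of these, the mutant's part turns when libraries are scaled to equal covered length. All 3 genes then had less in late than in early mutant, against 24.0% of all genes.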

How the results depend on the processing

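Each setting was compared with the counts of members or regions given above, and small moves come first. E(spl)m5-HLH overlapped when early with peaks of at least 200 bp, limits of 160 bp or equal lists. Su(H) had less in late mutant with peaks of at least 200 bp or equal lists. With 1 kb flanks, E(spl)m7-HLH had less in early mutant and E(spl)m8-HLH overlapped. With only peaks wholly inside the window, E(spl)m8-HLH had less in late mutant and overlapped between ages in the mutant. With 1 kb flanks, counts were 1 with more in early mutant, 3 with less and 4 with more in late mutant, 4 with less in late WT, 0 with less in late against early mutant, 3 with less at both ages, 2 at the smallest p for genotype by age and 3 regions lost with age in WT, and E(spl)mbeta-HLH turned to log2 ratios of 0.30 and 0.52. With gene spans alone, 5 had less and 3 more in early mutant with 6 regions lost, 3 had less and 5 more in late mutant, 0 had less in late against early mutant, 3 had less at both ages and 1 region was lost with age in WT. There, log2 ratios turned to 0.35 (E(spl)m5-HLH), 0.42 (E(spl)m8-HLH), 1.93 (E(spl)mbeta-HLH) and 0.70 (E(spl)mgamma-HLH) when early, and to 0.27 (E(spl)m5-HLH) and 1.97 (E(spl)mbeta-HLH) when late. With peaks of at least 200 bp, 1 region was gained in early mutant, 2 were lost and 8 gained with age in WT, and 0 members had less in late mutant than early. Common limits of 160 bp gave 1 region gained in early mutant and 0 members with less in late mutant than early. With equal list lengths, 6 regions were lost and 3 gained in early mutant, 0 gained in late mutant, 2 lost and 8 gained with age in WT, 1 lost and 4 gained with age in the mutant, and E(spl)m5-HLH turned to 0.026 when early.

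Scaling to equal covered length, chosen after seeing the data, gave 0 members with less and 9 with more in early mutant, 8 with less and 2 with more in late against early mutant, 0 with less at both ages and 3 at the smallest p for genotype by age. Over all genes, it gave 31.4% with less and 22.0% with more in early mutant. In late against early mutant the shares were 24.0% and 26.3%. The early log2 ratios that follow are of the 9 members with less before scaling. Of these, N overlapped after scaling, while E(spl)m7-HLH, not listed here, had more. The ratios became 0.021 (N), 0.42 (Dl), 0.38 (neur), 0.20 (Su(H)), 0.33 (E(spl)m3-HLH), 0.69 (E(spl)m5-HLH), 0.80 (E(spl)m8-HLH), 0.55 (E(spl)mbeta-HLH) and 0.45 (E(spl)mgamma-HLH). The cause was not tested. Leaving out each library in turn gave 9 to 10 members with less and 0 to 1 with more in early mutant, 6 to 7 with less in late mutant, 5 to 7 at both ages, 1 to 2 at the smallest p for genotype by age, 14 to 17 and 7 to 9 regions lost in early and late mutant, 0 to 3 and 1 to 3 gained, and, with age, 5 to 7 gained in WT and 1 to 3 lost and 8 to 14 gained in the mutant. A call of less, more, lost or gained needs every library of both groups to agree. Leaving a library out loosens that rule and tends only to keep or add calls, so these ranges cannot show that the counts are stable. Same-numbered replicates did not deviate together (correlations of -0.0181 to 0.0140 over 15839 genes). With the replicate number as a block, 8 members had less in late mutant and 8 at both ages, and the other counts of members did not move. Unknown depth and 2 libraries a group limit every value.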
